A study of Mus musculus with 4 samples.

Results

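The genes described here are 30 genes of glycolysis and lactate handling, out of 31054 features counted in single cells of aged mouse lung. They were chosen by symbol from the feature lists, not by any measured value. All 30 symbols were found, in 31 rows, since Aldoa is listed under 2 Ensembl identifiers; the second (ENSMUSG00000114515), with 61 UMIs in all, is kept apart from the first. Of the 30 genes, 18 encode enzymes of the path from glucose to lactate, 4 encode carriers of glucose or lactate, 4 encode the enzymes that make and remove fructose 2,6-bisphosphate, and 4 encode the kinases that switch off pyruvate dehydrogenase.

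Glycolysis splits glucose into pyruvate in the cytosol. Pyruvate is then carried into mitochondria, where pyruvate dehydrogenase turns it into acetyl-CoA, or lactate dehydrogenase turns it into lactate in the cytosol, which leaves the cell with a proton through monocarboxylate carriers. Most steps can be run by more than 1 isoenzyme, and the isoenzymes differ in affinity, regulation and tissue. In lung, neutrophils are known for living largely on glycolysis, and alveolar type 2 cells are known for using lactate as a fuel.

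All mice were male C57BL/6, and they were 19 months old when treatment began. For 1 month they received either BPTES, a small molecule that inhibits the glutaminase GLS1, which turns glutamine into glutamate, or its vehicle DMSO. There were 2 libraries per group. Each library mixed 20000 CD45-negative and 9000 CD45-positive cells sorted from digested lung tissue, so class shares reflect the sort. How many animals a library stands for is not given in the sources used here, and p-values measure only the spread between these libraries. One question the design raises for these genes is whether they rise where glutamine use is blocked.

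The BPTES libraries held 289575999 and 315719662 UMIs (unique molecular identifiers, each standing for 1 captured RNA molecule) and the DMSO libraries held 260346570 and 342107092. After filtering, 63895 cells were used, between 14407 and 18860 per library, with medians between 13912.5 and 15747.5 UMIs per cell. Pairs of libraries shared between 75 and 121 cell barcodes. The cells fell into 42 clusters, which were named "-like" from marker genes, and 7 clusters with 25.2% of the cells stayed unnamed. The largest of these, with 7701 cells, scored best for general capillary markers but had more arterial markers among its leading genes. The general capillary-like class below, with 7246 cells, leaves it out. Tests were run in 20 named classes, those whose 4 libraries each held 50 cells or more. Levels below are CPM, that is UMIs of a gene per 1000000 UMIs of that class in that library, given as mean ± SD over the 4 libraries unless stated. UMIs of a 3′ assay count captured molecules and are not scaled by length, so the isoenzyme shares below are shares of captured molecules. Whether the isoenzymes of a family were captured equally well was not tested.

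The promoters of 3 genes are shown because the comparisons of BPTES and DMSO below turn on Ldha and Pgam1, and Ldhb is the larger of the 2 lactate dehydrogenase isoenzymes in ciliated-like cells. They are RefSeq windows on GRCm38.p6, from 250 bases before to 50 bases after the start, read 5′ to 3′ on the gene's strand. Capitals mark ACGTG or GCGTG on either strand (read as CACGT or CACGC on the other), the core that hypoxia-inducible factor is known to bind and that overlaps the E-box CACGTG bound by MYC. The Ldha window is chr7:46845554-46845853 (plus strand), the Ldhb window chr6:142507908-142508207 (minus strand) and the Pgam1 window chr19:41911621-41911920 (plus strand).
Ldha: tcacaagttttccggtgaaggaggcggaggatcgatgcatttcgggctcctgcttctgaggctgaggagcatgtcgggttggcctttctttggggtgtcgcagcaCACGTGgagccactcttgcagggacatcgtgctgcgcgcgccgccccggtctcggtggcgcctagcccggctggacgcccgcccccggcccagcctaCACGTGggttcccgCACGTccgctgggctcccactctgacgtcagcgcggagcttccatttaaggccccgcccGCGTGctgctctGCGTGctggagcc
Ldhb: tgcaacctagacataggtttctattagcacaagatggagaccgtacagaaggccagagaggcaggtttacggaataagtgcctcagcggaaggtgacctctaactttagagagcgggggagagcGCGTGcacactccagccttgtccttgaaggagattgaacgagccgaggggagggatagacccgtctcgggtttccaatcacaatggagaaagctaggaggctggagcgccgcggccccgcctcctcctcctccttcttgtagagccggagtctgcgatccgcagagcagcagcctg
Pgam1: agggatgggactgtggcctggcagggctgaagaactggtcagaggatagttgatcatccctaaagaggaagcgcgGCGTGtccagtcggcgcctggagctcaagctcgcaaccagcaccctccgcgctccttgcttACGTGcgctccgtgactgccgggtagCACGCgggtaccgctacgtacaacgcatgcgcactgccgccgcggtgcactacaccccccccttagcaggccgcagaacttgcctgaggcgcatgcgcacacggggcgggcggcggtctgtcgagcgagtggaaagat
The Ldha window holds 7 matches, with overlapping matches counted on each strand, the Pgam1 window 3 and the Ldhb window 1. Of 32851 promoter windows of this length, 43.8% hold at least 1 match and 8.93% hold at least 3. Windows were found for 29 of the 30 genes, all but Slc2a3, and 23 of these 29 first windows (79.3%) hold a match, against 43.8% over the first windows of 27025 genes. A match is a description of the letters and not of binding.

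The glycolysis genes differed widely between classes. Of the 30 genes, 12 had at least 10 CPM in every tested class, and 11 spanned less than 10-fold between their highest and lowest class. A further 9 spanned more than 100-fold: the 4 carriers, Hk2, Hk3, Eno3, Ldhb and Pdk4. Aldoc is not among them because it has no ratio, at 15.7 CPM in AT2-like cells and 0 CPM in smooth muscle-like cells. Neutrophil-like cells held the highest level of 7 genes, and AT2-like, ciliated-like and classical monocyte-like cells held 5 each. Gamma-delta T-like cells were highest for 3. These and the orders below are among the 20 tested classes. Of the 30 genes, 14 had a higher mean in 1 of the 8 named classes with too few cells for testing, 6 of them in platelet-like cells: Hk1, Aldoa, Tpi1, Gapdh, Pkm and Slc2a3. For 17 of the 30 genes the 4 libraries of the highest class lay above all 4 libraries of the second-highest class. The neutrophil-like class joined a cluster of 2199 cells, at 0.618 of their library's median UMIs, with a cluster of 606 cells at 1.93. The smaller cluster scored 3.33 for neutrophil and 2.29 for non-classical monocyte markers. The part of each cluster in the levels and differences of that class was not tested.

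**Figure D1:**
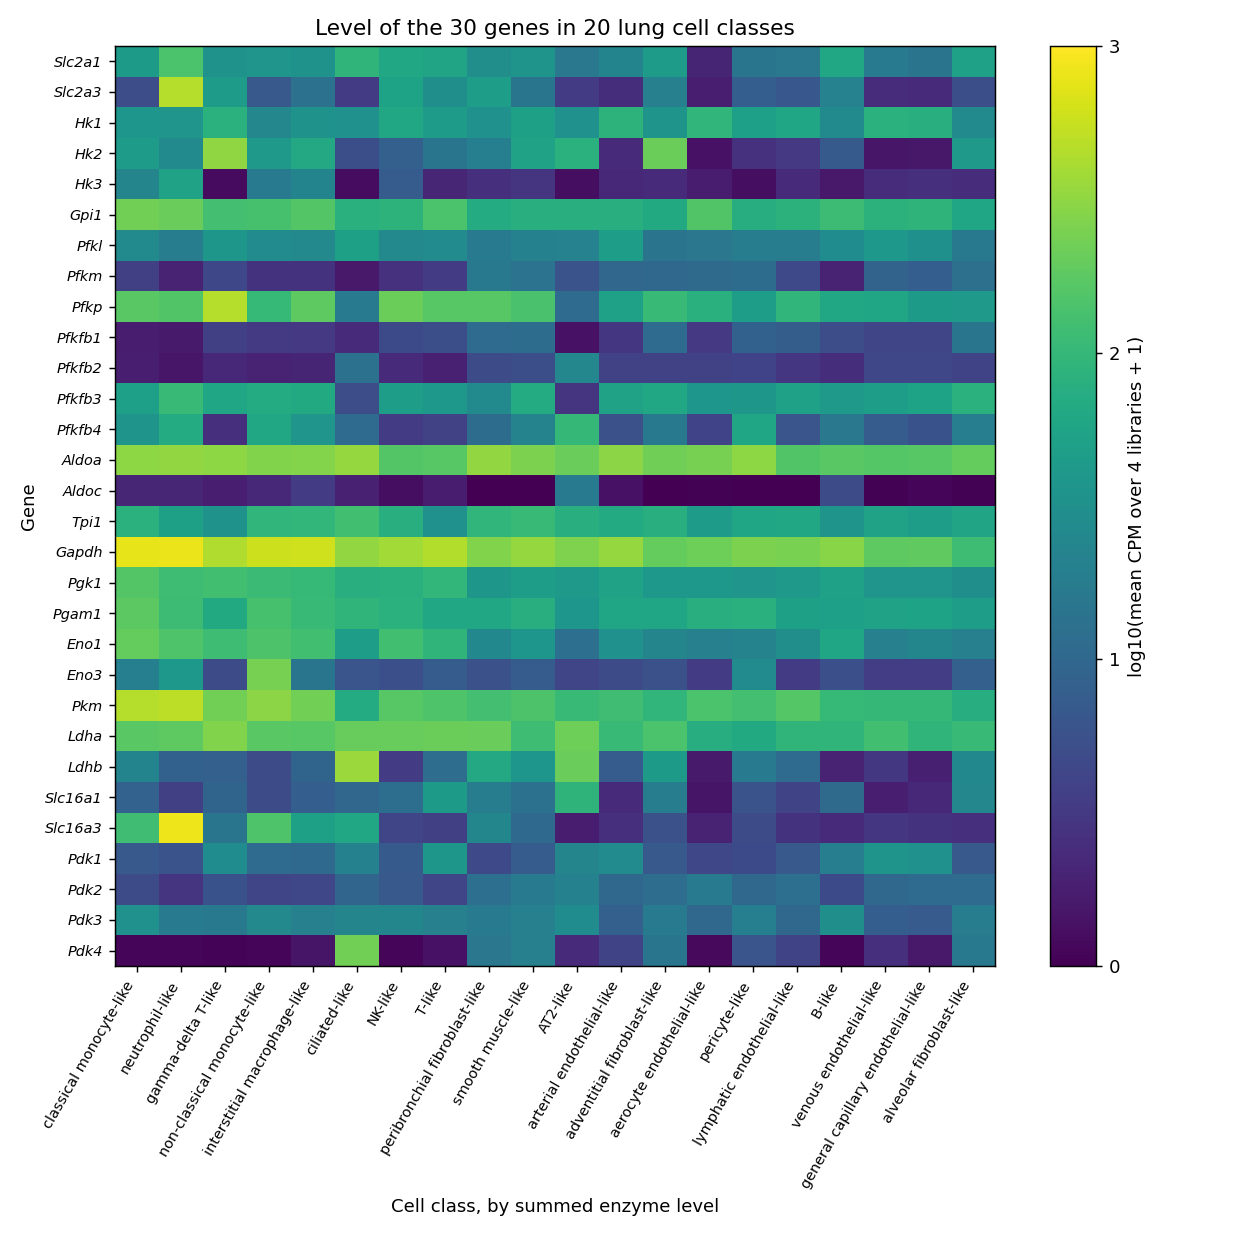
Mean level of each of the 30 genes (rows) in each of the 20 tested classes (columns) over 4 libraries, as log10 of CPM. Gapdh, Aldoa and Pkm are at 118, 151 and 68.8 CPM in their lowest class, while Slc16a3, Hk2, Ldhb and Pdk4 each stand out in a few.

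Glucose enters lung cells mainly through the carriers GLUT1 (Slc2a1) and GLUT3 (Slc2a3). Slc2a1 in neutrophil-like cells was at 140.1 and 156 CPM in the BPTES libraries and 127 and 138 CPM in the DMSO libraries. Ciliated-like cells followed at 90.0 CPM ± 4.07 (SD, n = 4), below every neutrophil library, and aerocyte-like cells, the gas-exchange capillary class, held 1.03 CPM ± 0.709 (SD, n = 4). Slc2a3 (6:122727809-122801640, minus strand, GRCm38) was at 402 and 409 CPM with BPTES and 570 and 470 CPM with DMSO in neutrophil-like cells. NK-like cells were next, at 53.3 CPM ± 6.53 (SD, n = 4), so neutrophil-like cells lay far above the other tested classes in this carrier. Platelet-like cells, not tested, held 773 CPM ± 343 (SD, n = 4). Slc2a3 made up 76.4% ± 4.15 (SD, n = 4) of the UMIs of the 2 carriers in neutrophil-like cells and 2.61% ± 0.883 in ciliated-like cells, and Slc2a1 was the larger of the 2 in 17 of 20 classes.

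Hexokinases trap glucose as glucose 6-phosphate. Hk1, the housekeeping isoenzyme, was the largest in 12 classes, Hk2, the insulin- and hypoxia-regulated isoenzyme, in 7, and Hk3, the myeloid isoenzyme, in 1. Among the tested classes Hk1 was highest in aerocyte-like cells, at 83.4 and 92.9 CPM with BPTES and 94.1 and 101 CPM with DMSO, where it made up 98.9% ± 0.401 (SD, n = 4) of hexokinase UMIs, and overlapped with arterial endothelial-like cells. Platelet-like cells, not tested, held 376 CPM ± 74.1 (SD, n = 4). Hk2 (6:82725025-82774454, minus strand) was highest in gamma-delta T-like cells, at 319 and 287 CPM with BPTES and 306 and 354 CPM with DMSO. In adventitial fibroblast-like cells, named after the fibroblasts around vessels and airways, Hk2 was at 214, 219, 200.03 and 215 CPM, a share of 85.6% ± 0.654 (SD, n = 4). Of the 4044 cells of that class, 2214 lay in 1 cluster that scored 1.82 for adventitial and 1.60 for alveolar fibroblast markers. No adventitial marker was among the leading genes of that cluster, which included Itgbl1 and Gabra3. AT2-like cells held 82.0 CPM ± 4.09 of Hk2, while aerocyte-like and general capillary-like cells held 0.388 and 0.569 CPM. The share of Hk2 lay between 0.403% and 3.36% in the 5 endothelial classes and between 34.7% and 85.6% in the 3 fibroblast classes, with no overlap between the class means. Among the tested classes Hk3 was highest in neutrophil-like cells, at 52.3 CPM ± 6.57 (SD, n = 4) and 46.0% ± 4.73 of hexokinase UMIs, followed by classical monocyte-like cells at 22.0 CPM ± 3.88, while the untested mast and basophil-like cells held 157 CPM ± 49.4. Over 20 classes the levels of Hk1 and Hk2 had a Spearman rho of -0.46, given as a description of classes that share the same 4 libraries.

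**Figure D2:**
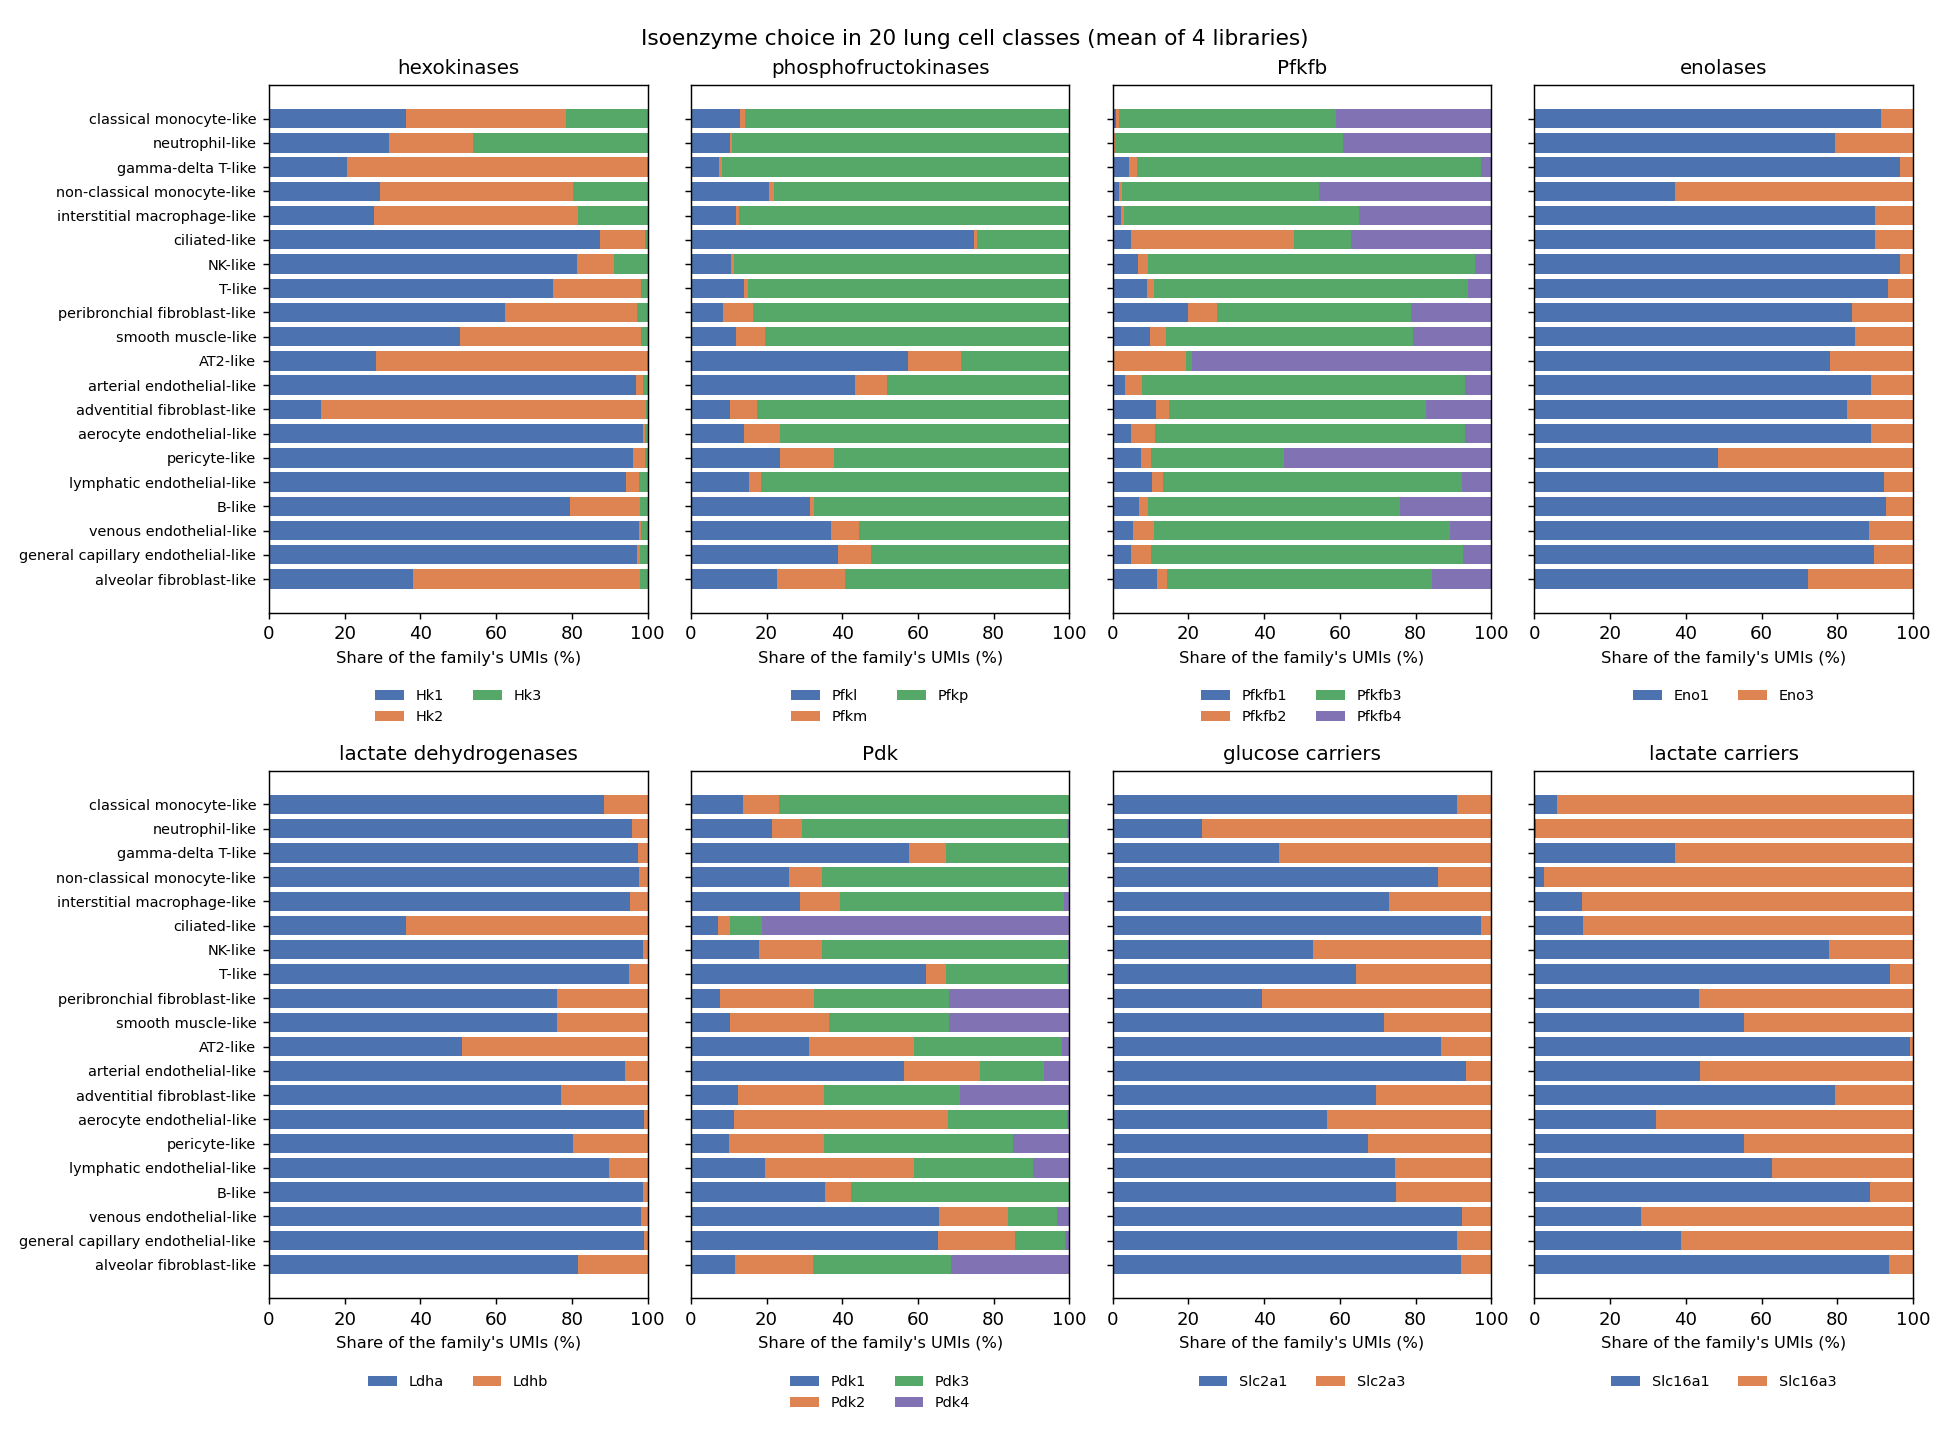
Share of each isoenzyme in the UMIs of its family (percent, mean over 4 libraries) in each of the 20 tested classes. Adventitial fibroblast-like cells are mostly Hk2, non-classical monocyte-like cells mostly Eno3 and ciliated-like cells mostly Ldhb, against Hk1, Eno1 and Ldha in most other classes.

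Phosphofructokinase commits glucose to glycolysis. Pfkp, the platelet-type subunit, was the largest in 18 of 20 classes and Pfkl, the liver-type subunit, in the other 2. Pfkp was highest in gamma-delta T-like cells, at 432 and 434 CPM with BPTES and 467 and 498 CPM with DMSO, a share of 91.8% ± 0.586 (SD, n = 4). NK-like cells held 209 CPM ± 17.3, and AT2-like cells only 10.2 CPM ± 2.01. Pfkl led in ciliated-like cells (50.1 CPM ± 4.16, 74.7% ± 5.93 of the family) and in AT2-like cells (57.5% ± 4.37). Pfkm, the muscle-type subunit, reached at most 15.4 CPM ± 1.63, in peribronchial fibroblast-like cells.

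Fructose 2,6-bisphosphate is the strongest activator of phosphofructokinase, and the Pfkfb enzymes set its level. Pfkfb3, whose kinase activity far exceeds its phosphatase activity, was the largest of the family in 17 classes and reached 106 CPM ± 11.6 (SD, n = 4) in neutrophil-like cells. It was nearly missing from AT2-like cells, at 1.81 CPM. There Pfkfb4 was the largest, at 97.9 and 96.6 CPM with BPTES and 92.6 and 104 CPM with DMSO, a share of 79.1% ± 1.64. Pericyte-like cells, which wrap capillaries, also had more Pfkfb4 than Pfkfb3, at 58.1 CPM ± 8.86 and 54.8% of the family. Pfkfb2, the heart-type enzyme, led only in ciliated-like cells (12.1 CPM, 43.1% ± 7.83) and was at 23.6 CPM ± 2.13 in AT2-like cells. Pfkfb1, the liver-type enzyme, was highest in alveolar fibroblast-like cells, at 13.8 CPM ± 3.44. Their libraries overlapped with those of smooth muscle-like cells, next at 10.6 CPM ± 3.98.

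The range over classes of the other enzymes down to pyruvate differed from gene to gene. Aldolase A (Aldoa) ran over only 2.23-fold, with 338 CPM ± 26.5 (SD, n = 4) in ciliated-like cells at the top of the tested classes, and made up at least 92.9% of aldolase UMIs in every class. Aldolase C (Aldoc) was at 15.7 CPM ± 1.80 in AT2-like cells and at 23.0 CPM ± 5.88 in the untested alveolar macrophage-like cells. Triosephosphate isomerase (Tpi1) was also highest of the tested classes in ciliated-like cells, at 122 CPM ± 3.76. Gapdh was at 813 CPM ± 72.6 in neutrophil-like and 782 CPM ± 98.4 in classical monocyte-like cells, whose libraries overlapped, and at 118 CPM ± 7.53 in alveolar fibroblast-like cells. Classical monocyte-like cells were highest of the tested classes for glucose 6-phosphate isomerase (Gpi1, 229 CPM ± 7.92), phosphoglycerate kinase (Pgk1, 155 CPM ± 18.1), phosphoglycerate mutase (Pgam1, 175 CPM ± 17.2) and enolase 1 (Eno1, 195 CPM ± 36.7). AT2-like cells were at the other end for 2 of these, with Pgam1 at 36.9 CPM ± 0.856 and Eno1 at 11.6 CPM ± 1.63. Pyruvate kinase M (Pkm) was at 497 CPM ± 35.1 in neutrophil-like and 68.8 CPM ± 9.13 in ciliated-like cells. The levels of Gapdh, Pgk1 and Eno1 followed each other across the 20 classes, with Spearman rho between 0.89 and 0.94.

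Enolase isoenzymes separated the 2 monocyte classes. Eno3 (11:70657202-70662513, plus strand), the muscle isoenzyme, was at 214 and 209 CPM with BPTES and 263 and 283 CPM with DMSO in non-classical monocyte-like cells, the patrolling monocytes of vessels. It made up 62.9% ± 2.32 (SD, n = 4) of enolase UMIs there. Neutrophil-like cells were next, at 38.6 CPM ± 11.97. Pericyte-like cells had an Eno3 share of 51.5% ± 12.5, on levels that ranged from 9.56 to 50.9 CPM between libraries. Eno1 may share reads with the near-identical Eno1b, which held 1025 UMIs in the named classes against 48218 for Eno1.

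Lactate dehydrogenase is a tetramer of A subunits (Ldha), known for turning pyruvate into lactate, and B subunits (Ldhb), known for the reverse. Ldha (7:46841475-46855627, plus strand) was the larger in 19 of 20 classes, at 271 CPM ± 11.8 (SD, n = 4) in gamma-delta T-like, 215 CPM ± 9.16 in AT2-like and 66.2 CPM ± 15.9 in pericyte-like cells. The untested ILC2-like cells held 482 CPM ± 42.7 of Ldha. Ldhb (6:142490249-142507957, minus strand) was at 367 and 353 CPM with BPTES and 349 and 333 CPM with DMSO in ciliated-like cells, a share of 63.7% ± 0.747 (SD, n = 4). All 4 libraries there had more Ldhb than Ldha, which was at 199.6 CPM ± 7.09, close to its level in AT2-like cells. Club-like cells, the secretory cells of the airway, held 490.0 CPM ± 54.2 of Ldhb but had too few cells for testing (62). AT2-like cells were near parity, with 208 CPM ± 8.55 of Ldhb and a share of 49.1% ± 1.32. Aerocyte-like and general capillary-like cells held 0.653 and 0.842 CPM of Ldhb, which is also the most that free RNA in the droplets can have added there.

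The lactate carriers divided neutrophil-like from AT2-like cells. Slc16a3, which encodes MCT4, the carrier known for lactate export from glycolytic cells (11:120948480-120960868, plus strand), was at 765 and 766 CPM with BPTES and 969 and 851 CPM with DMSO in neutrophil-like cells. Non-classical monocyte-like cells followed at 149.9 CPM ± 16.8 (SD, n = 4), classical monocyte-like cells at 120.3 CPM ± 18.2 and ciliated-like cells at 61.8 CPM ± 9.37. AT2-like cells held 0.700 CPM ± 0.280. Slc16a1, which encodes MCT1, a carrier that works in both directions (3:104638668-104658462, plus strand), was highest of the tested classes in those AT2-like cells, at 79.1 and 78.4 CPM with BPTES and 107 and 84.4 CPM with DMSO. It made up 99.2% ± 0.359 of the UMIs of the 2 carriers in AT2-like and 0.319% ± 0.0821 in neutrophil-like cells, so these classes sat at the 2 ends of the carrier range. T-like cells were next for Slc16a1, at 41.7 CPM ± 3.09.

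Pyruvate dehydrogenase kinases switch off pyruvate dehydrogenase in the mitochondrial matrix, which limits the turning of pyruvate into acetyl-CoA. Pdk4 (6:5483351-5496309, minus strand), the isoenzyme known to rise with fasting and fat use, was at 257 and 154 CPM with BPTES and 245 and 251 CPM with DMSO in ciliated-like cells. BPTES replicate 2 was the low library. The share of Pdk4 in its family there was 81.3% ± 3.47 (SD, n = 4), smooth muscle-like cells followed at 19.2 CPM ± 3.88, and gamma-delta T-like cells held 0.0601 CPM. Pdk1 was at 38.0 CPM ± 2.75 in T-like cells and made up 65.6% ± 4.85 of its family in venous endothelial-like cells. Pdk3 was the largest isoenzyme in 11 classes and made up 76.6% ± 3.27 in classical monocyte-like cells. Pdk2 was highest of the tested classes in AT2-like cells at 19.95 CPM ± 2.77 and made up 56.5% ± 5.17 in aerocyte-like cells.

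The 18 enzymes from hexokinase to lactate dehydrogenase were also summed. Among the 20 tested classes, classical monocyte-like cells had the highest sum, 2905 CPM ± 223 (SD, n = 4), followed by neutrophil-like cells (2772 ± 162) and gamma-delta T-like cells (2618 ± 105). Alveolar fibroblast-like cells had the lowest, 865 CPM ± 28.4, and the ratio of highest to lowest tested class was 3.36, between 2.98 and 3.69 in single libraries. Along this order, 12 of 19 neighbouring classes overlapped, the first 3 among them.

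**Figure D3:**
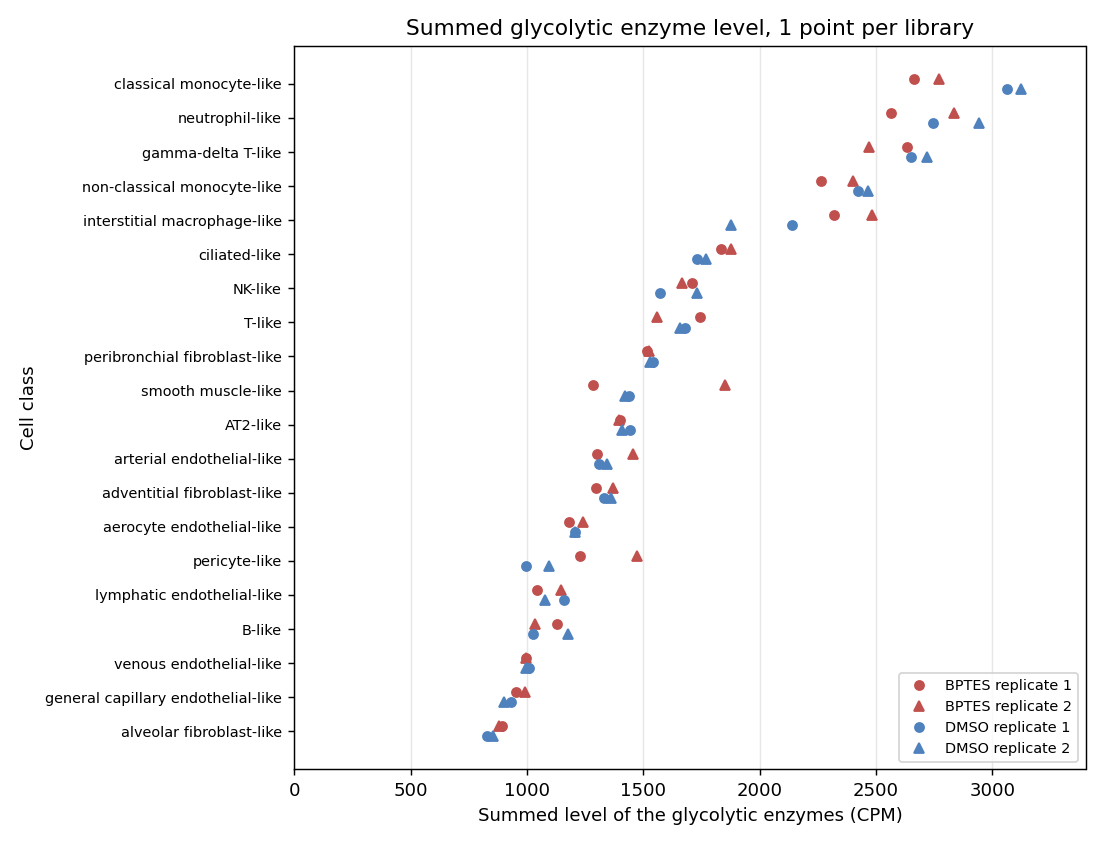
Summed level of the 18 enzymes of the path from glucose to lactate (CPM) in each of the 20 tested classes, 1 point per library, coloured by group. Classical monocyte-like, neutrophil-like and gamma-delta T-like cells lie at the top and alveolar fibroblast-like cells at the bottom, and the colours do not separate in 1 direction across classes.

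BPTES was then compared with DMSO. No gene of the 30 was called in any class by edgeR's quasi-likelihood test at an adjusted p under 0.05, over 526 pairs of gene and class. The smallest adjusted p was 0.125, for Hk2 in classical monocyte-like cells. Over all genes and the same 20 classes, 297 of 242764 pairs were called, or 0.122%. Of the 526 pairs, 248 were higher and 278 lower with BPTES, with a median log2 fold change of -0.02. At an unadjusted p under 0.05 there were 73 pairs (34 higher, 39 lower), 13.9% of those tested, against 11.9% over all genes. The libraries of the 2 groups did not overlap for 91 pairs higher with BPTES (17.3%) and 139 lower (26.4%), against 19.0% and 24.5% over all genes. The glycolysis genes therefore stood close to the background by each of these counts. DESeq2 called 1 pair, Hk2 in alveolar fibroblast-like cells (adjusted p = 0.0440), or 0.190% of the 526 against 1.07% over all genes. With edgeR the count of 0 became 25 without the filter on low counts (4.13% of pairs, against 2.43% over all genes), 8 without BPTES replicate 1 (1.48%, against 1.48%) and 6 without DMSO replicate 2 (1.12%, against 1.07%).

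The summed enzyme level went both ways. It was higher with BPTES in 9 classes and lower in 11, without overlap in 5 and 6 of them, and the median log2 difference was -0.01. In interstitial macrophage-like cells the sum was 2321 and 2483 CPM with BPTES and 2139 and 1877 CPM with DMSO. In pericyte-like cells it was 1230 and 1471 against 997 and 1093 CPM. In classical monocyte-like cells it was 2662 and 2771 against 3063 and 3123 CPM. With 2 libraries against 2, an exact permutation test cannot go below a two-sided p of 0.333.

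**Figure D4:**
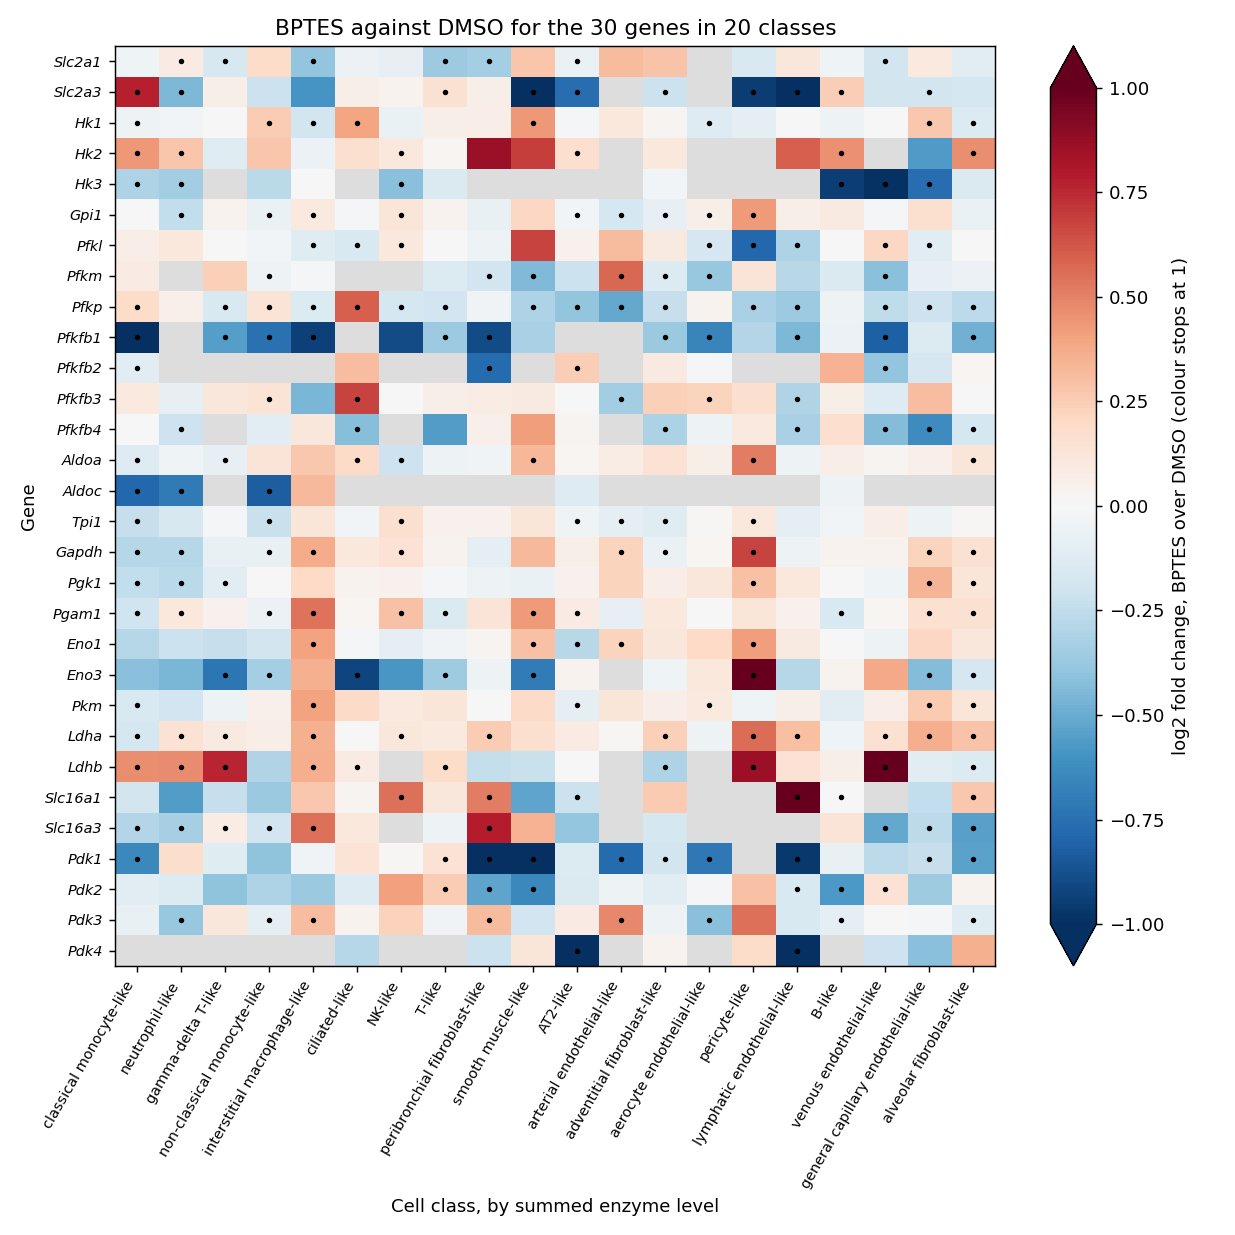
Log2 fold change of BPTES over DMSO from edgeR for each of the 30 genes (rows) in each of the 20 tested classes (columns). Grey cells were not tested, black dots mark pairs whose libraries do not overlap between groups, and the colour scale stops at 1 in both directions. Rows for Pfkfb1 and Hk3 are lower throughout, that for Ldha is mostly higher, and no pair passed the adjusted threshold.

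Ldha was, of the 30 genes, the one higher with BPTES in the most classes. It was higher in 17 of 20 classes, with libraries that did not overlap in 11 of them, and lower without overlap in 1. These classes share the same 4 libraries and are not independent. How many of all genes reach such counts over classes was not computed, here or for the genes named below. In general capillary-like cells Ldha was at 97.1 and 100.5 CPM with BPTES and 80.4 and 80.8 CPM with DMSO (log2 fold change 0.36, SE 0.0769, edgeR adjusted p = 0.153). Without BPTES replicate 1 the adjusted p was 0.0374, and over all its alternatives it lay between 0.00581 and 0.830. Ranges over the alternatives were computed for 40 pairs of gene and class, chosen by the rule given with the processing. Where the log2 fold change of such a pair moved by over 1.5 times, its range, or its value under the alternatives that moved it, follows it. For most other log2 fold changes of single classes, such as that of Pgam1 in interstitial macrophage-like cells, no range was computed. The 6 venous endothelial markers in those cells summed to 411 and 371 against 595 and 518 CPM, 3 lower and 1 higher without overlap, and their part was not tested. Interstitial macrophage-like cells were at 177 and 193 against 147 and 143 CPM. Lymphatic endothelial-like cells were at 96.0 and 105 against 77.6 and 87.8 CPM (0.30, SE 0.119, edgeR adjusted p = 0.340), and adventitial fibroblast-like cells at 141 and 159 against 132 and 130.4 CPM (0.24, range 0.07 to 0.34, SE 0.0979, edgeR adjusted p = 0.309). The 7 adventitial markers in the latter summed to 6751 and 7429 against 10659 and 8709 CPM, 5 lower and 1 higher without overlap, and 1 of the 3 clusters of that class held 164 and 330 against 437 and 303 cells. The part of these was not tested. Classical monocyte-like cells went the other way, at 149 and 171 against 179 and 188 CPM. In gamma-delta T-like cells, the tested class with the highest Ldha, the log2 fold change was 0.09 (range 0.04 to 0.14, SE 0.0769, edgeR adjusted p = 0.799). When each class was given equal weight, limma put Ldha 0.16 higher on the log2 scale (SE 0.0591, adjusted p = 0.278). The value was 0.08 without BPTES replicate 2 and 0.23 without BPTES replicate 1.

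That class-averaged limma comparison called 0 of 19 genes tested of the 30 and 0 of 8969 genes in all. Unadjusted, 3 of the 19 and 17.5% of all genes had a p under 0.05. Beside Ldha these were Pfkfb4, lower by a log2 value of -0.22 (SE 0.0555, adjusted p = 0.242), and Pdk1, at -0.29 (SE 0.0760, adjusted p = 0.242). The median over the 19 genes was 0.03, against 0.02 over all genes.

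**Figure D5:**
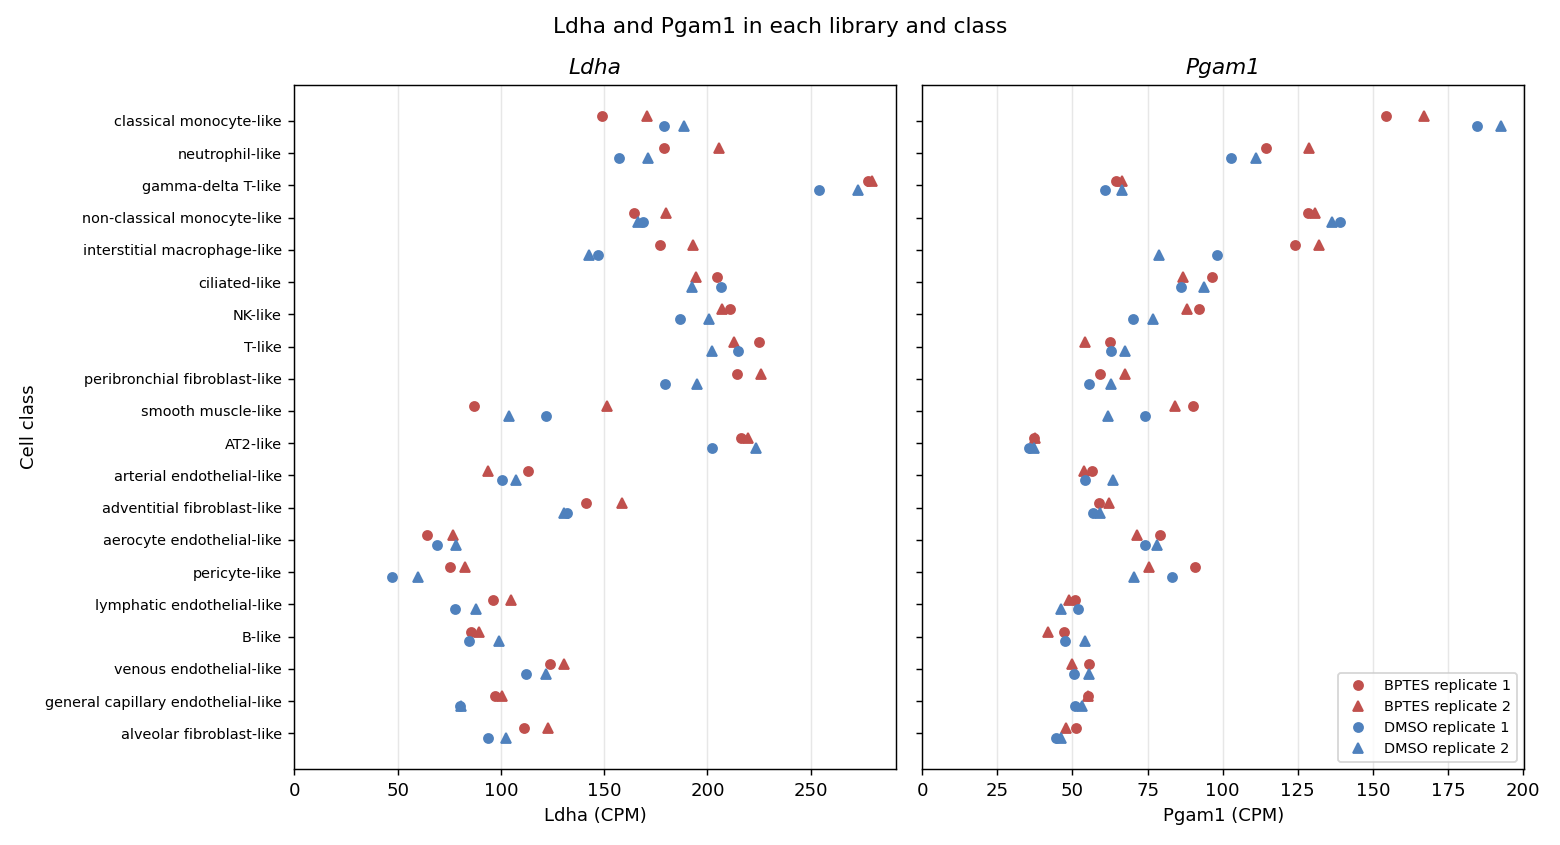
Level of Ldha and Pgam1 (CPM) in each of the 20 tested classes, 1 point per library, coloured by group. Ldha lies higher with BPTES in 17 classes; Pgam1 lies higher in interstitial macrophage-like and NK-like cells and lower in classical monocyte-like cells.

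Several regulators of the path lay lower with BPTES in most classes, none past the adjusted threshold. Pfkfb1 (X:150588229-150643878, plus strand) was lower in all 16 classes in which it was tested, without overlap in 11, with a median log2 fold change of -0.51. Its levels are low: in peribronchial fibroblast-like cells they were 7.28 and 6.69 CPM with BPTES and 13.3 and 13.1 CPM with DMSO (-0.89, SE 0.294, edgeR adjusted p = 0.315). In alveolar fibroblast-like cells they were 9.91 and 12.8 against 18.2 and 14.3 CPM (-0.48, range -0.69 to -0.29, SE 0.160, edgeR adjusted p = 0.185), and in adventitial fibroblast-like cells 9.67 and 7.99 against 12.2 and 11.2 CPM (-0.37, range -0.74 to -0.25, SE 0.141, edgeR adjusted p = 0.284). The alveolar fibroblast value passed the threshold without DMSO replicate 2 (-0.62, edgeR adjusted p = 0.0343), and its adjusted p lay between 0.0343 and 0.427 over its alternatives. Pdk1 was lower in 15 of 19 classes, 9 without overlap. It was at 31.6 and 25.5 against 37.2 and 33.1 CPM in general capillary-like cells (-0.23, range -0.34 to -0.12, edgeR adjusted p = 0.307) and at 24.3 and 14.6 against 41.6 and 26.5 CPM in arterial endothelial-like cells (-0.77, range -1.17 to -0.31, edgeR adjusted p = 0.443). The arterial value was -1.17 without BPTES replicate 1, -0.45 without BPTES replicate 2, -0.41 without DMSO replicate 1 and -0.31 at resolution 2. Pfkfb4 was lower in 11 of 17 classes, and in ciliated-like cells it was at 7.52 and 9.74 against 14.2 and 9.90 CPM (-0.42, range -0.70 to -0.17, edgeR adjusted p = 0.760). Pfkfb3 had the opposite balance, higher in 15 of 20 classes, but without overlap in only 3, and lower without overlap in 2. Its 2 classes with an unadjusted p under 0.05 were both lower. In aerocyte-like cells it was at 36.8 and 41.3 against 30.7 and 36.5 CPM (0.23, range 0.11 to 0.37, edgeR adjusted p = 0.614). Pfkfb2 in AT2-like cells was at 26.1 and 24.1 against 23.1 and 21.0 CPM (0.25, edgeR adjusted p = 0.330).

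Of the gate enzymes, Hk2 leaned higher with BPTES and Hk3, Pfkp and Pfkm leaned lower, while Hk1 and Pfkl had no common direction. Pfkm, at low levels, was lower in 13 of 17 classes, 6 without overlap, and higher without overlap in 1. Hk2 was higher in 13 of 16 classes, 6 of them without overlap, with a median log2 fold change of 0.22. In alveolar fibroblast-like cells it was at 44.7 and 49.4 CPM with BPTES and 30.4 and 39.2 CPM with DMSO (0.46, SE 0.137, edgeR adjusted p = 0.163). The value was 0.68 without DMSO replicate 2 (edgeR adjusted p = 0.00447), 0.27 without DMSO replicate 1, 0.27 with clustering seed 2, 0.19 with doublets kept and 0.15 with the 30 genes among the variable genes. Adventitial fibroblast markers, of the class with the higher Hk2, summed to 620.0 and 526 against 427 and 449.9 CPM in these cells, 4 of 7 higher without overlap, and their part was not tested. In neutrophil-like cells it was at 30.5 and 26.3 against 19.5 and 24.9 CPM (0.28, range 0.16 to 0.59, edgeR adjusted p = 0.691). Hk3 was lower in all 11 classes tested, 6 without overlap, and in classical monocyte-like cells it was at 20.9 and 18.1 against 21.6 and 27.4 CPM (-0.31, range -0.46 to -0.13, edgeR adjusted p = 0.325). Of the tested classes, neutrophil-like cells held the most Hk3, and outside them the summed 7 neutrophil markers were also lower with BPTES without overlap in 8 of the 10 classes tested for Hk3. In general capillary-like cells, for example, that sum was 24.1 and 28.5 against 51.5 and 42.9 CPM, while in classical monocyte-like cells it overlapped, at 167 and 144 against 170.2 and 166 CPM. The part of this in Hk3 was not tested. Hk1 was higher in 10 and lower in 10. It was at 46.9 and 65.4 against 40.3 and 46.8 CPM in smooth muscle-like cells (0.43, range 0.09 to 0.72, edgeR adjusted p = 1.00) and at 24.0 and 26.2 against 21.1 and 21.5 CPM in non-classical monocyte-like cells (0.26, edgeR adjusted p = 0.586). The smooth muscle value was 0.09 without BPTES replicate 2 and 0.72 without BPTES replicate 1. Pfkp was lower in 15 of 20 classes, 13 of them without overlap. Among these were lymphatic endothelial-like cells, at 82.1 and 80.8 against 117 and 94.6 CPM (-0.36, range -0.50 to -0.20, edgeR adjusted p = 0.268), venous endothelial-like cells, at 54.0 and 52.1 against 69.6 and 60.5 CPM (-0.25, range -0.35 to -0.15, edgeR adjusted p = 0.363), and AT2-like cells, at 8.71 and 8.499 against 12.7 and 11.003 CPM (-0.40, edgeR adjusted p = 0.275). The AT2 value turned to 0.03 with doublets kept. In AT2-like cells the 8 alveolar fibroblast markers summed to 423 and 432 against 535 and 444 CPM, 7 lower without overlap. The 6 B cell markers there summed to 21.9 and 22.5 against 44.8 and 37.0 CPM, all 6 lower without overlap. Summed AT1 and venous endothelial markers were higher there without overlap. The part of these markers was not tested. In ciliated-like cells Pfkp was higher, at 19.8 and 19.6 against 12.8 and 13.2 CPM (0.60, edgeR adjusted p = 0.461). Pfkl was higher in 9 classes and lower in 11. It was at 44.1 and 38.5 against 37.1 and 36.4 CPM in venous endothelial-like cells (0.20, range 0.14 to 0.27, edgeR adjusted p = 0.457) and at 13.9 and 13.5 against 14.3 and 16.7 CPM in aerocyte-like cells (-0.16, range -0.27 to -0.03, edgeR adjusted p = 0.811).

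In neutrophil-like, classical monocyte-like and lymphatic endothelial-like cells, more of the 30 genes were lower than higher with BPTES at an unadjusted p under 0.05. In adventitial fibroblast-like cells 1 was higher and 4 lower, or 17.2% against 16.2% over all genes. T-like and non-classical monocyte-like cells had 0 and 2, or 7.41% and 7.14% against 9.57% and 8.97%. Arterial endothelial-like and smooth muscle-like cells had 0 and 1, or 5.56% and 3.70% against 11.3% and 2.58%. General capillary-like (5 and 2), ciliated-like (3 and 0) and NK-like cells (1 and 0) had 24.1%, 11.5% and 4.35%. Over all genes these 3 classes had 19.4%, 8.92% and 8.63%. Such shares lay near or below those over all genes, so no direction is read from them. Aerocyte-like, B-like and gamma-delta T-like cells had 0 such genes, against 10.0%, 7.33% and 9.02% over all genes. In neutrophil-like cells 6 of 26 genes had an unadjusted p under 0.05, all 6 lower, or 23.1% against 7.67% over all genes, and the median log2 fold change was -0.18. Without overlap, 9 of the 26 genes were lower and 5 higher there, against 12.3% lower and 29.1% higher over all genes, and the summed enzyme level overlapped, at 2562 and 2836 against 2744 and 2944 CPM. Slc2a3 there was at 402 and 409 CPM with BPTES and 570 and 470 CPM with DMSO (-0.45, range -0.63 to -0.24, SE 0.135, edgeR adjusted p = 0.547). Slc16a3 also did not overlap, at 765 and 766 against 969 and 851 CPM. The 7 neutrophil markers themselves summed to 49203 and 53769 CPM with BPTES and 74369 and 67946 CPM with DMSO, 4 of them lower without overlap and 1 higher, and their part in these values was not tested. In classical monocyte-like cells 10 of 29 genes had an unadjusted p under 0.05, 3 higher and 7 lower, or 34.5% against 15.6%. Gapdh was at 677 and 721 against 876 and 855 CPM (-0.28, edgeR adjusted p = 0.148), while Ldhb was at 23.1 and 27.2 against 20.5 and 16.7 CPM (0.47, SE 0.141, edgeR adjusted p = 0.197). Hk2 was also higher there, with the smallest adjusted p of all pairs of the 30 genes (edgeR, 0.125). Its log2 fold change was 0.44 without the filter on low counts. The 5 cycling markers in these cells summed to 13.8 and 14.6 against 49.3 and 25.3 CPM, 3 of them lower without overlap, and this was not tested as a source of the differences. Eno3 in non-classical monocyte-like cells did not overlap between groups, at 214 and 209 against 263 and 283 CPM (-0.34, SE 0.0797, edgeR adjusted p = 0.247). In lymphatic endothelial-like cells 7 of 26 genes had an unadjusted p under 0.05, 2 higher and 5 lower, or 26.9% against 12.1% over all genes. The lower ones were Pfkp, Pfkfb3, and, at levels under 10 CPM, Pdk1, Pdk4 and Slc2a3, and the higher ones were Ldha and, also under 10 CPM, Slc16a1. The 6 aerocyte markers there summed to 93.1 and 104 against 267 and 179 CPM, 4 lower without overlap, the 7 arterial markers to 155 and 138 against 207 and 172 CPM, 3 lower, and the class's own 6 markers to 31173 and 30728 against 31236 and 33425 CPM, 2 lower and 1 higher. Their part was not tested.

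Interstitial macrophage-like cells leaned the other way. Of 28 genes tested, 6 were higher and 1 lower at an unadjusted p under 0.05, or 25.0% against 16.1% over all genes. Slc16a3 was at 45.7 and 71.9 CPM with BPTES and 43.5 and 38.1 CPM with DMSO (0.55, SE 0.232, edgeR adjusted p = 0.303). That value was 0.16 without BPTES replicate 2, 0.85 without BPTES replicate 1 and 0.03 with doublets kept, and over its alternatives the adjusted p lay between 0.00280 and 0.996. Slc2a1 was at 23.6 and 32.1 against 36.7 and 37.2 CPM (-0.40, SE 0.184, edgeR adjusted p = 0.349), a difference that was 0.00028 at resolution 0.5 and -0.65 without BPTES replicate 2. Markers of other classes moved with these values: the summed classical monocyte markers were at 2582 and 2626 CPM with BPTES and 1754 and 1538 CPM with DMSO, although only 1 of these 6 markers was higher without overlap and 2 were lower. The 6 non-classical monocyte markers summed to 571 and 558 against 292 and 434 CPM, 5 of them higher without overlap. The 6 B cell markers summed to 74.9 and 79.1 against 202 and 252 CPM, all 6 lower without overlap. The 5 cycling markers summed to 105 and 98.2 against 33.9 and 29.8 CPM, all 5 higher without overlap. The class's own 7 markers summed to 5904 and 5722 against 7010 and 7527 CPM, 3 lower without overlap and 0 higher. None of these markers was at 0 in all libraries. The mean depth was 32963 and 34203 UMIs per cell against 26638 and 27873, and the class held 231 and 302 against 94 and 164 cells. The part of these in the differences was not tested.

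Pericyte-like cells had 6 higher and 1 lower of 23 genes at an unadjusted p under 0.05, or 30.4% against 6.96% over all genes. Eno3 was at 28.4 and 50.9 CPM with BPTES and 9.56 and 17.8 CPM with DMSO (1.51, SE 0.359, edgeR adjusted p = 0.266), and Pfkl at 15.3 and 10.997 against 25.7 and 19.6 CPM (-0.79, range -0.999 to -0.06, SE 0.313, edgeR adjusted p = 0.654). With doublets kept, the Eno3 value turned to -0.58, and it passed the threshold without BPTES replicate 1 (1.85, edgeR adjusted p = 0.00477) and without DMSO replicate 2 (2.08, edgeR adjusted p = 0.00734), with adjusted p between 6.3e-06 and 0.891 over its alternatives. The Pfkl value was -0.06 at resolution 0.5 and -0.43 with doublets kept. The summed general capillary markers in these cells were at 163 and 38.0 CPM with BPTES and 218 and 219.7 CPM with DMSO, 4 of 6 lower without overlap and none at 0. The mean depth was 12539.5 and 14949 UMIs per cell against 10546 and 12021. Their part in the result was not tested.

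The carriers showed no common direction in the remaining classes. Slc2a1 in T-like cells was at 48.6 and 46.7 CPM with BPTES and 66.4 and 58.2 CPM with DMSO (-0.36, SE 0.0906, edgeR adjusted p = 0.310), and in gamma-delta T-like cells at 29.3 and 34.4 against 34.6 and 37.2 CPM (-0.16, range -0.32 to -0.03, edgeR adjusted p = 0.829). Slc2a3 was at 21.5 and 22.2 against 19.3 and 18.3 CPM in B-like cells (0.25, edgeR adjusted p = 0.694) and at 8.48 and 8.72 against 16.9 and 20.7 CPM in smooth muscle-like cells (-1.07, edgeR adjusted p = 1.00). Slc16a3 in peribronchial fibroblast-like cells was at 26.8 and 30.8 against 19.2 and 15.1 CPM (0.79, SE 0.218, edgeR adjusted p = 0.282), 2.74% of its level in neutrophil-like cells. Slc16a1 in NK-like cells was at 12.2 and 14.6 against 9.63 and 8.64 CPM (0.55, range 0.03 to 0.68, edgeR adjusted p = 0.674), and its value was 0.03 with the 30 genes among the variable genes. Of the lower enzymes, Aldoa in NK-like cells was at 142 and 151 against 159 and 182 CPM (-0.21, range -0.30 to -0.12, edgeR adjusted p = 0.633), Eno1 in arterial endothelial-like cells at 35.1 and 33.0 against 26.2 and 32.5 CPM (0.22, range 0.06 to 0.40, edgeR adjusted p = 0.797), and Ldhb in T-like cells at 12.2 and 10.7 against 10.5 and 10.0 CPM (0.18, range 0.11 to 0.41, edgeR adjusted p = 0.777).

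Whether a gene's response to BPTES differed between classes was tested with an edgeR interaction of class and treatment. Of 18579 genes, 637 (3.43%) were called, and 1 of the 30 was among them: Pgam1 (19:41911923-41918660, plus strand; F = 4.25, adjusted p = 0.00569). At an unadjusted p under 0.05 there were 11 of the 31 rows of the 30 genes, against 3216 of 18579 genes in all, or 17.3%. The 11 were Pgam1, Eno1, Gapdh, Slc2a3, Pfkp, Slc16a3, Eno3, Ldha, Ldhb, Aldoa and Gpi1. Pgam1 was higher with BPTES in 14 classes and lower in 6. In interstitial macrophage-like cells it was at 124 and 132 CPM with BPTES and 98.2 and 78.8 CPM with DMSO (0.54, edgeR adjusted p = 0.137). In NK-like cells it was at 92.2 and 88.1 against 70.2 and 76.9 CPM. The 6 NK markers there summed to 4383 and 4108 against 4963 and 4964 CPM, 4 lower and 1 higher without overlap, and 4 of 5 cycling markers, 4 of 6 AT1 markers and 2 of 6 classical monocyte markers were higher without overlap, with 2 of the latter lower; their part was not tested. Pgam1 was also higher in smooth muscle-like cells, at 90.2 and 84.3 against 74.0 and 61.9 CPM. In classical monocyte-like cells it was lower, at 154 and 167 against 185 and 193 CPM (-0.20, edgeR adjusted p = 0.292), and in B-like cells it was at 47.3 and 42.0 against 47.4 and 54.2 CPM (-0.16, range -0.26 to -0.06, edgeR adjusted p = 0.790). The call was lost in each of the 4 fits without 1 library, where the adjusted p was 0.0725 without BPTES replicate 1, 0.444 without BPTES replicate 2, 0.0948 without DMSO replicate 1 and 0.471 without DMSO replicate 2.

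Isoenzyme choice was set against treatment as shares of each family. Of 480 shares, 41.9% did not overlap between the groups, and each of these had the smallest p that an exact permutation test of 2 against 2 allows, 0.333. Over the levels of all genes, groups did not overlap for 19.0% higher and 24.5% lower with BPTES. Levels are a different measure from shares, and the shares within a family depend on each other. A background of shares was not computed. The largest isoenzyme was the same in all 4 libraries for 164 of 180 pairs of family and class. In 2 pairs the 2 groups split cleanly. In pericyte-like cells Eno3 was the larger enolase in both BPTES libraries and Eno1 in both DMSO libraries, and in ciliated-like cells Pfkfb2 led with BPTES and Pfkfb4 with DMSO.

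The genes around the path were read from 7 other lists, whose 79 genes were also chosen with earlier results known. None of the 119 pairs of other glycolytic enzymes, 138 of other carriers, 209 of pyruvate entry into mitochondria, 160 of the pentose phosphate pathway and 88 of gluconeogenesis was called by edgeR. Their median log2 fold changes were -0.03, -0.08, 0.01, 0.07 and 0.02. Of 254 pairs of hypoxia targets outside glycolysis, 0 were called, and 34 were higher and 15 lower at an unadjusted p under 0.05, 19.3% against 11.9% over all genes. The regulators had 18.0% (14 higher, 24 lower) and the other carriers 16.7% (6 higher, 17 lower). Among 211 pairs of regulators 1 was called: Pparg, the nuclear receptor of lipid storage, fell in alveolar fibroblast-like cells, from 102 and 105 CPM with DMSO to 57.2 and 49.2 CPM with BPTES (-0.93, SE 0.0849, edgeR adjusted p = 0.0350). That call was lost with doublets kept (-0.90, edgeR adjusted p = 0.106). The 8 alveolar fibroblast markers in these cells summed to 16835 and 16378 against 17748 and 17397 CPM, 5 lower without overlap, while the adventitial markers were higher, as given beside Hk2, and their part was not tested.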

How the data were processed

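Droplet libraries were made with a 3′ kit after a CD45 sort, per the labels' protocols. The deposited values were UMI counts per gene and barcode, written by Cell Ranger 8.0.1 with the build mm10, per the submitters' processing notes. Barcodes with fewer than 500 genes, fewer than 1000 UMIs or over 10% mitochondrial UMIs were dropped, and the highest doublet scores were removed at 0.4% per 1000 barcodes, with a score built after Scrublet in place of that tool. Cells were clustered on 2000 variable genes without the 30 genes and the other lists (40 components, 15 neighbours, Leiden, igraph 0.11.9, resolution 1). Clusters were named from fixed markers where the mean z-score was at least 1.5 and at least 3 markers were detected in 10% of cells. No name was given where another class had more markers than the best one among the 10 leading genes, or where the median UMIs of the cells were under 0.333 of their library's with none of that name's markers in the lead; these 2 rules left most of the unnamed cells without a name.

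Counts were summed per library and class and tested with edgeR 4.0.16 (TMM, filterByExpr, quasi-likelihood, Benjamini-Hochberg over all genes of a class, threshold 0.05). The class average was tested with limma 3.58.1 (trend, prior count 2), and DESeq2 1.42.0 was an alternative. All tests were two-sided. R was 4.3.3 and Python 3.11.15. The code was tested on simulated data. The 30 genes, the 7 lists and the tests were chosen with earlier results of these data known. All 30 genes are given by level. Full statistics follow called pairs and, per class, up to 1 gene per direction with the largest fold change among genes at 10 CPM or more whose groups do not overlap; other values were chosen after they were seen. Gene positions are GENCODE M21 on GRCm38, and promoters are RefSeq. The SEs beside log2 values come from the edgeR or limma fit and take in the spread between libraries. The numbers of replicates showed no sign of pairing the libraries: same-numbered libraries deviated with correlations between -0.150 and 0.0587 over the 20 classes. This cannot show that same-numbered libraries were handled apart.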

Additional observations from a re-analysis of the deposited data

Results flagged for a closer look

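Pgam1 stood out because its difference between BPTES and DMSO was not the same in all classes, by edgeR's interaction of class and treatment (adjusted p = 0.00569). It was 1 of 31 rows of the 30 genes, or 3.23%, against 3.43% of all genes called, so at the main setting the share was at the background. At each of the 9 alternatives of clustering and filtering the rows' share was above that of all genes. It was 3.33% against 1.75% with doublets kept and 19.4% against 5.85% at resolution 0.5. The log2 fold change of Pgam1 was 0.54 in interstitial macrophage-like cells, 0.43 in smooth muscle-like cells and 0.29 in NK-like cells, against -0.20 in classical monocyte-like and -0.16 in B-like cells. The call was made in 8 of 9 alternatives of clustering and filtering, with the exception of resolution 0.5 (adjusted p = 0.0581). It was made in 0 of 4 fits without 1 library, with adjusted p between 0.0725 and 0.471.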

How the results depend on the processing

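The count of called pairs of gene and class over all genes, 297, was 580 with doublets kept, 2586 with DESeq2, 9653 without a filter on low counts and between 865 and 3746 without 1 library. For the 30 genes the count was 0. It was 1 with doublets kept (Eno3 in interstitial macrophage-like cells, lower), 1 with DESeq2 (Hk2 in alveolar fibroblast-like cells), 25 without the filter (16 higher and 9 lower, of 16 genes in 9 classes) and between 0 and 8 without 1 library (8 without BPTES replicate 1, 6 without DMSO replicate 2). An arm left with 1 library was assumed to vary like the other. With the replicate number as a block, for which no sign of pairing was seen, 3095 pairs of gene and class were called in all. Of the pairs of the 30 genes 4 were called, all 4 higher. They were Pgk1 and Ldha in general capillary-like cells and Gapdh and Eno3 in pericyte-like cells. With the numbers crossed, an alternative added after the data were seen, the counts were 2879 and 3. The shares of all pairs called were 0.220% with doublets kept, 1.27% with the block and 1.19% crossed, against 0.179%, 0.760% and 0.570% of the 30 genes' pairs.

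In the class-averaged comparison 0 of the 30 genes were called under each of 14 alternatives. The number whose difference varied between classes, 1, was 6 at resolution 0.5, 3 at resolution 2, 5 with the 30 genes among the variable genes, 3 at mitochondrial limits of 5% and 20%, 3 with each of the seeds 1 and 2, added after the data were seen, 2 without the filter and between 0 and 1 without 1 library. Over all genes the share called was 5.85% at resolution 0.5 (19.4% of the 30 genes' rows), 3.53% with the 30 genes among the variable genes (16.1%), between 3.11% and 4.21% at the other settings just named (6.45% to 10.0%) and between 0.202% and 1.71% without 1 library. Of 676 comparisons of the 40 named pairs with an alternative, 655 kept direction and side of the threshold, 18 passed it and 3 reversed: Pfkp in AT2-like cells with doublets kept (log2 fold change 0.029), Eno3 in pericyte-like cells with doublets kept (-0.58) and Slc2a1 in interstitial macrophage-like cells at resolution 0.5 (0.00028). None of 160 comparisons without 1 library reversed. The choice of pairs whose groups do not overlap all but fixed this in advance, so it is no measure of stability. The ratio of highest to lowest summed enzyme level stayed between 3.06 and 3.49. The causes were not tested.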

Other observations

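P4ha1, the prolyl hydroxylase subunit that matures collagen and a known target of hypoxia-inducible factor, was chosen from the hypoxia list after its values were seen. It was higher with BPTES in 20 of 20 classes, with a median log2 fold change of 0.48 (range 0.08 to 0.85), and without overlap in 13. The share of all genes with such counts over classes was not computed. The smallest edgeR adjusted p of P4ha1 was 0.139. In alveolar fibroblast-like cells it was at 106 and 172 CPM with BPTES and 72.4 and 93.6 CPM with DMSO. BPTES replicate 2 was the highest library in all 20 classes, while BPTES replicate 1 lay above both DMSO libraries in 13. Other genes of that list went both ways: Egln1 and Higd1a, both also known targets, were higher in 17 of 20 classes and Mxi1, a MYC antagonist, was lower in 15.

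A class can hold cells of unequal level. Within the B-like class, 1 cluster of 644 cells had a summed enzyme level of 381 CPM, against 1115 CPM in the other. Its cells were shallow, at 0.163 of their library's median UMIs against 0.868 in the other, a depth below that of the clusters left unnamed for it, and transcripts without a gene name (Gm31243, Gm47782) were among its leading genes. The part of depth in the level was not tested. Platelet-like cells, too few to be tested (77), had the highest summed level of the named classes, 4808 CPM ± 570.0 (SD, n = 4).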
